A study of Saccharomyces cerevisiae with 6 samples.

Results

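The HAP genes of the budding yeast Saccharomyces cerevisiae encode 5 regulators of respiration, HAP1 to HAP5, and their transcripts were followed here across 6 arrays. They were taken as the probes whose open reading frame is YLR256W (HAP1), YGL237C (HAP2), YBL021C (HAP3), YKL109W (HAP4) or YOR358W (HAP5). Each gene had 1 probe, so 5 of 6256 probes on the array are described, and all 5 were among the 5907 bright enough to be tested. Matching was by reading frame because the names HAP1, HAP2 and HAP3 are also listed as older synonyms of ELP4, IKI1 and ELP6, which are not HAP regulators and were left out. The series holds 3 arrays of yeast sampled after 9 h in fermentation medium with xylose at 50 g/L and 3 of yeast sampled after 3 h with glucose at 50 g/L. Sugar and time differ together between these groups, so that their parts in a difference cannot be told apart. The source label of each glucose sample reads 9 h, against 3 h in its other labels and in the design text, and 3 h was taken. The labels name no strain, genetic change or aeration. They do not say whether the 3 numbered runs per sugar were separate cultures, so p-values cover only the spread among these arrays, and that spread could be technical. The study's title concerns the choice of promoters for xylose cultivation, and the contrast of the sugars is the comparison that its design provides.

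Hap2, Hap3 and Hap5 together form the DNA-binding core of a complex that recognises the CCAAT box upstream of many nuclear genes of mitochondrial proteins. Hap4 has no DNA-binding role of its own, joins the core and carries the activation domain, and its transcript is known to be repressed by glucose. Hap1 is a separate zinc-cluster protein that senses heme, and so oxygen, and activates genes for cytochromes and for sterol synthesis as well as ROX1, the repressor of hypoxic genes. The reference strain S288C is known to carry a transposon insertion in the HAP1 coding region that weakens the protein. The labels do not say whether the cells studied here have it.

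Levels below are log2 processed signals relative to each array's 75th percentile, averaged over the 7 spots of a probe. The level at that percentile lay between 1407 and 3871 signal units, and no spot was saturated. Slide 1 carried replicates 1 and 2 of both sugars and slide 2 carried replicate 3 of both. Xylose replicates 1 and 2 were closer to each other than any other pair, with a correlation across genes of 0.993. Glucose replicate 2 stood apart, correlating with glucose replicates 1 and 3 at 0.868 and 0.837. It alone had signal for LEU2 and MET17, amino acid synthesis genes often deleted in laboratory strains, at 0.34 and 4.57, whereas they were not well above background on the other arrays. Its URA3 level was 6.35 against 0.99 to 1.82 elsewhere. ASP3-1, of a repeated gene family for asparaginase, stood at -8.55 on it against 2.87 to 3.99 elsewhere. HIS3, also checked, was not well above background on any array, at -8.59 on glucose replicate 2 and -9.11 to -8.03 on the others. The labels do not say whether this array holds the same strain as the others, so every glucose mean that includes it may mix strains or conditions. Results below are given for the full set of 6 arrays and again with this array left out. A gene was called when its limma adjusted p, corrected over all 5907 genes by the Benjamini-Hochberg method, was under 0.05. With all arrays 149 genes (2.52%) were called, 84 higher in xylose (1.42%) and 65 lower (1.1%). Once glucose replicate 2 was left out there were 682 (11.5%), 348 higher (5.89%) and 334 lower (5.65%). Leaving out xylose replicates 1, 2 and 3 gave 12, 12 and 13 calls, and leaving out glucose replicates 1 and 3 gave 28 and 53. Treating xylose replicates 1 and 2 as 1 sample gave 12. Blocking on the replicate number gave 310.

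None of the 5 HAP genes was called with all arrays, where 2.52% of genes were, or without glucose replicate 2, where 11.5% were. At an unadjusted p under 0.05, which 16.5% of all genes reached with limma, 2 of the 5 passed, HAP4 and HAP2, with all arrays. With glucose replicate 2 left out the same number passed, where 27.7% of all genes did. These were also the members whose groups did not overlap, both higher in xylose, a pattern seen for 12.6% of all genes, with 10.9% lying wholly higher in glucose.

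HAP4, the activating subunit, had the largest difference of the 5. Its level was 2.46, 2.44 and 1.72 in xylose replicates 1 to 3 and 1.17, -0.73 and 0.79 in glucose replicates 1 to 3. Every xylose array lay above every glucose array, and glucose replicate 2 lay furthest down, 3.19 below the highest array. The means were 2.21 ± 0.42 (SD, n = 3) in xylose and 0.41 ± 1.01 in glucose. The log2 difference of xylose minus glucose was 1.80 ± 0.51 (SE), a 3.48-fold difference with a 95% interval of 1.51 to 8.04 and a limma adjusted p = 0.138. Among all genes this difference ranked 99th from the top. RNA came from whole cultures, so a larger share of cells with the transcript and more of it per cell cannot be told apart. Leaving out glucose replicate 2 made the difference 1.23 ± 0.30, or 2.34-fold, with an adjusted p = 0.0576. It was 2.23 within slide 1 and 0.93 within slide 2, which has 1 array per sugar and allows no test. With the slide as a block the adjusted p was 0.116. With spike-in centring, under which the median gene differed by -0.67 in place of 0.02, HAP4 differed by 1.11 (adjusted p = 0.506). The groups then overlapped, with glucose replicate 1 highest of all at 1.73 against 0.94 to 1.63 in xylose. On every array HAP4 was among the brighter probes, at the 92.6th to 96.4th percentile of probes in xylose and at the 88.4th, 61.8th and 84.8th percentile in glucose replicates 1 to 3. The standard deviation over its spots was 0.05 to 0.09 on 5 arrays and 0.29 on glucose replicate 3.

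**Figure D1:**
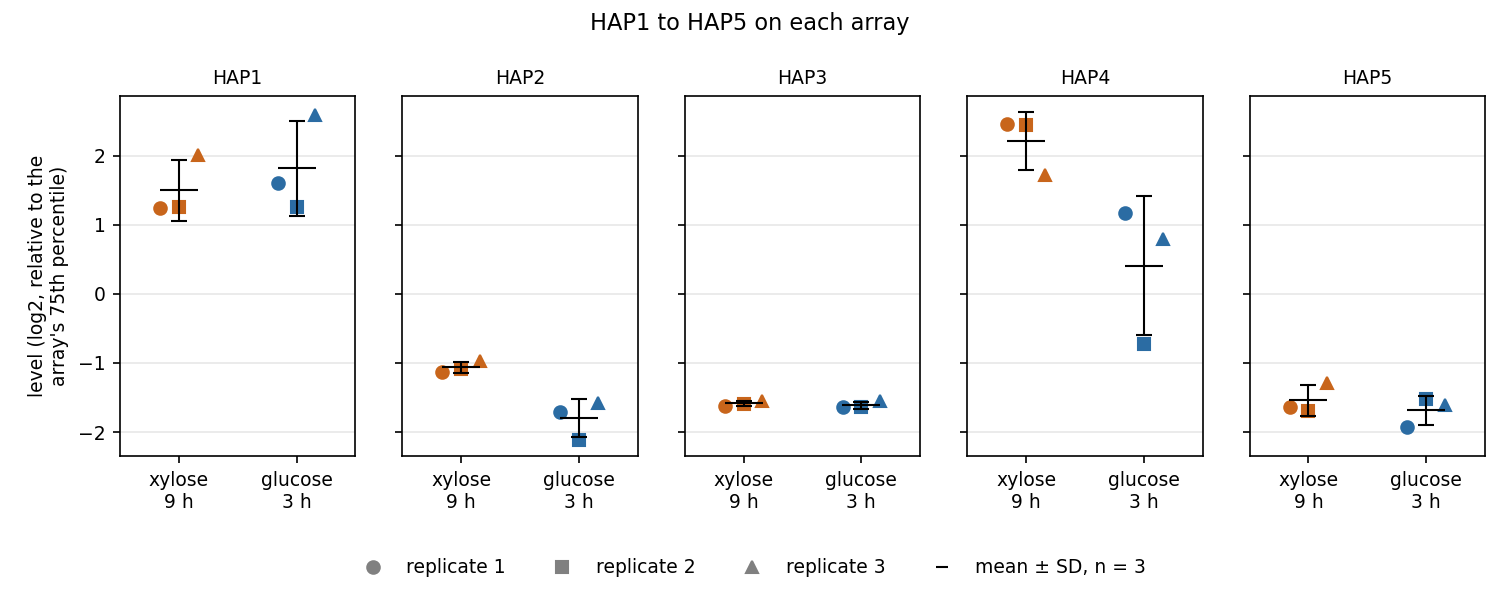
Level of each HAP gene on each array (log2 relative to the array's 75th percentile), xylose in orange and glucose in blue, with the mean and SD of 3 arrays in black. Each panel is a different probe, so heights are to be compared within a panel. HAP4 and HAP2 are higher on every xylose array than on any glucose array, HAP3 spans 0.10 over all 6 arrays, and HAP1 is highest on replicate 3 of each sugar.

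Among the subunits of the DNA-binding core, HAP2 stood higher in xylose, by less than HAP4. Its level was -1.13, -1.09 and -0.98 in xylose replicates 1 to 3 and -1.71, -2.11 and -1.58 in glucose replicates 1 to 3. The groups did not overlap, and the lowest array was again glucose replicate 2. HAP2 differed by 0.73 ± 0.24 (SE, n = 3 against 3), 1.66-fold with a 95% interval of 1.12 to 2.46, and a limma adjusted p = 0.185. After glucose replicate 2 was left out the value was 0.58 ± 0.17 (adjusted p = 0.0960). Within slides 1 and 2 it was 0.80 and 0.60. With the slide as a block HAP2 passed the threshold narrowly (adjusted p = 0.0495), in a fit that called 690 genes in all. With the replicate number as a block it did not (0.0841). On the spike-in scale the difference was 0.04 and the groups overlapped, with glucose replicate 1 highest at -1.15.

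HAP3, the second core subunit, varied least of the 5. It stood at -1.62, -1.60 and -1.54 in xylose replicates 1 to 3 and at -1.63, -1.64 and -1.56 in glucose replicates 1 to 3. All 6 values lie within 0.10, including glucose replicate 2, and the groups overlapped. Its difference was 0.02 with a 95% interval of -0.46 to 0.51 (limma adjusted p = 0.973), an interval that limma widens by drawing each gene's variance towards that of all genes. The standard deviation of HAP3 over the 6 arrays was 0.041 against a median of 0.464 over all genes, and 2 of 5907 genes had a smaller one. This steadiness depends on the scaling. With median centring 72 genes were steadier, with quantile normalization 111, and with spike-in centring 990, where the range of HAP3 over the arrays was 2.03. The sign of its small difference turned with quantile normalization (-0.01), median centring (-0.01) and spike-in centring (-0.66).

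HAP5 is the remaining core subunit. Its levels were -1.64, -1.70 and -1.28 in xylose and -1.93, -1.52 and -1.61 in glucose, replicates 1 to 3 in each. The groups overlapped, with the lowest and the highest value coming from glucose replicate 1 and xylose replicate 3. The difference was 0.15 (95% interval -0.43 to 0.72, limma adjusted p = 0.839), and -0.54 with spike-in centring. A smaller spread over the arrays than that of HAP5, 0.211, was found for 7.65% of genes.

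Differences between the HAP genes, HAP1 included, could not be decided by test, since 3 against 3 arrays allow no exact permutation p under 0.1. HAP4 minus the mean of HAP2, HAP3 and HAP5 was 3.92, 3.90 and 2.99 in xylose replicates 1 to 3 and 2.92, 1.02 and 2.37 in glucose replicates 1 to 3. Only the change of this quantity between the sugars carries meaning, since levels of different probes cannot be set against each other. It was 1.5 higher in xylose with no overlap (two-sided exact permutation test, p = 0.1, the smallest that 3 against 3 arrays can give). Glucose replicate 1 came close to xylose replicate 3, and with glucose replicate 2 left out the change was 0.96. Of the 10 pairs of HAP genes, 5 had differences that separated the sugars without overlap: HAP4 from HAP1 and from HAP3, and HAP2 from HAP1, HAP3 and HAP5. Each of the 5 includes HAP4 or HAP2, whose own levels did not overlap. Among single genes 12.6% lay wholly higher in xylose and 10.9% wholly higher in glucose. The share over all pairs of genes was not counted. The exact permutation p was 0.1 for each of these and 0.2 after adjustment over the 10 pairs, so none passed.

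**Figure D2:**
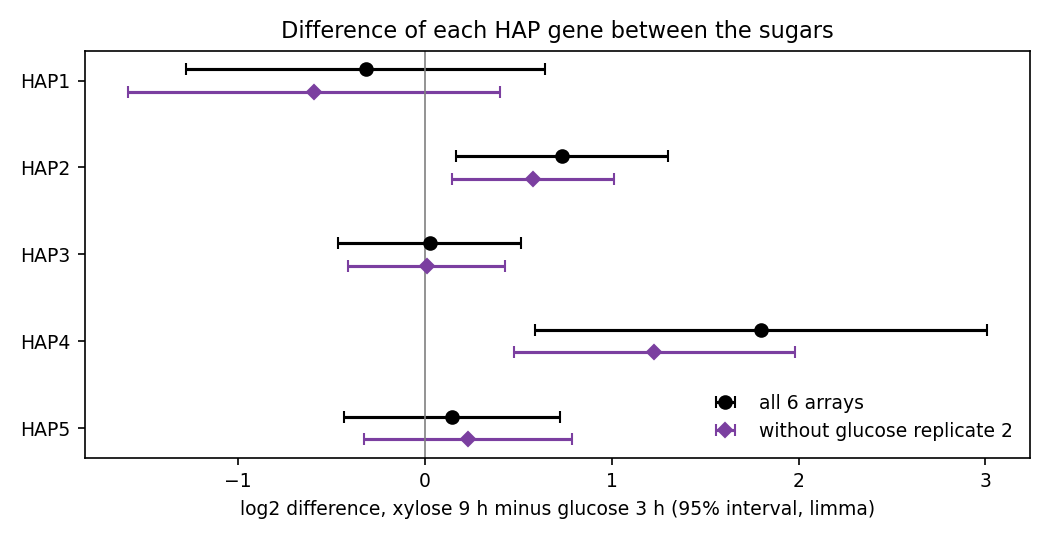
Log2 difference of xylose at 9 h minus glucose at 3 h for each HAP gene with its 95% interval from limma, for all 6 arrays (black circles) and without glucose replicate 2 (purple diamonds). The intervals of HAP2 and HAP4 lie above 0 in both fits, those of HAP1, HAP3 and HAP5 span 0, and none of the 5 has an adjusted p under 0.05.

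HAP1, the heme-responsive activator, had no clear difference between the sugars and varied more with the slide. It stood at 1.24, 1.26 and 2.01 in xylose replicates 1 to 3 and at 1.60, 1.26 and 2.59 in glucose replicates 1 to 3. Replicate 3 of each sugar, the pair on slide 2, held the highest values, and the groups overlapped. The difference of xylose minus glucose was -0.32 ± 0.41 (SE, 95% interval -1.28 to 0.64, limma adjusted p = 0.775). Dropping glucose replicate 2 made it -0.60, and dropping glucose replicate 3 turned its sign, to 0.07. Slide 2 lay above slide 1 by 0.76 in xylose and by 1.15 in glucose, a mean of 0.96. Of all genes 85.5% had a smaller slide difference by this measure, whose median was 0.487. For HAP2, HAP3 and HAP5 the mean slide difference was 0.23, 0.07 and 0.25, and for HAP4 it was -0.72 in xylose and 0.57 in glucose. Slide coincides with scan day and with replicate number 3, and these cannot be told apart.

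The genes that the Hap2/3/4/5 complex is known to activate were followed through a chosen list of 51. It held nuclear subunits of respiratory complexes II to IV with cytochrome c, ATP synthase subunits, TCA cycle enzymes and 6 other mitochondrial genes. This list and those below were chosen with earlier results of these data known, so their counts are no independent support. COX5B, the hypoxic form of a complex IV subunit, was placed with the Rox1-repressed genes instead and differed by -0.32. HEM1, also a target of the complex, was placed with heme synthesis and differed by 0.46. With all arrays limma called 17 of the 51 higher, or 33.3% against 1.42% of all genes, and none lower, against 1.1%. The median difference of the list was 1.28, against 0.02 over all genes. In 41 of the 51 every xylose array was above every glucose array, as in 12.6% of all genes, and in 1, LSC1, every xylose array was below. Leaving out glucose replicate 2, the list held 29 rises and no fall, where 5.89% of all genes rose, with a median of 1.18. The medians were 1.32 within slide 1 and 1.21 within slide 2. The count followed the arrays used. Dropping any 1 of the xylose arrays left 0 calls, dropping glucose replicate 1 left 1 and dropping glucose replicate 3 left 3. With the replicate number as a block 28 were called and with the slide as a block 35. Spike-in centring left 0 calls and a median of 0.59.

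Complex IV, cytochrome c oxidase, had 6 of its 8 listed subunits called higher, where 1.42% of all genes were, and the highest median of the roles, 1.94. COX13 stood at 3.97, 3.96 and 4.34 in xylose replicates 1 to 3 and at 2.41, 2.07 and 2.26 in glucose replicates 1 to 3, and rose by 1.85 ± 0.24 (SE, adjusted p = 0.0160). COX7 rose by 1.87 ± 0.23 and COX6 by 1.78 ± 0.26. COX4, COX5A and COX8 were the other calls. COX12 and COX9 differed by 2.23 and 1.68 without passing (adjusted p = 0.0822 and 0.124). Both passed when replicate number was a block (0.0341 and 0.0344), whereas COX5A did not (0.0534).

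In complex III with cytochrome c 6 of 10 genes rose, against 1.42% of all genes called higher. They were QCR2, CYT1, RIP1, QCR6, QCR7 and QCR9, and the median of the 10 was 1.56. QCR9, a small subunit of the complex, lay at 2.32, 2.27 and 2.40 in xylose and at 0.73, 0.70 and 0.68 in glucose, a rise of 1.62 ± 0.21 (adjusted p = 0.0160). Its 3 glucose values lay close together, glucose replicate 2 included. RIP1, the Rieske iron-sulfur protein, rose by 1.66 ± 0.23. QCR10 differed by 1.70 (adjusted p = 0.0684). It passed when replicate number was a block (0.0344).

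Of the 12 ATP synthase subunits listed, 3 rose, ATP5, ATP14 and ATP16, where 1.42% of all genes were called higher. All 12 had a positive difference, as did 3046 of all 5907 genes, and the median of the 12 was 1.26. ATP5, a stalk subunit, rose by 1.72 ± 0.23. ATP3, at 1.64 ± 0.39, did not pass (adjusted p = 0.0842), and its level in glucose replicate 2 was 0.49 against 1.58 and 1.93 in the others. Complex II, succinate dehydrogenase, had rises of SDH1 and SDH4 among 4 subunits and a median of 1.34. SDH2 differed by 1.45, more than either, without passing (adjusted p = 0.052).

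The TCA cycle enzymes had the lowest median difference of these roles, and a difference between the roles was not tested. None of the 11 was called with all arrays. A positive difference was found for 9 of them, and for 3046 of all 5907 genes, and the median of the 11 was 0.27. Differences ran from -0.51 for LSC1, a subunit of succinyl-CoA ligase, to 1.29 for MDH1, the mitochondrial malate dehydrogenase. ACO1, the aconitase, and KGD2, a subunit of 2-oxoglutarate dehydrogenase, differed by 1.23 and 1.18, within the range of the ATP synthase genes. The groups of ACO1 overlapped, and with glucose replicate 2 left out the 2 genes differed by 0.65 and 0.88. MDH1 was called with glucose replicate 2 left out, at 0.91 (adjusted p = 0.0377). CIT1, the citrate synthase, differed by 0.26 and IDH2, a subunit of isocitrate dehydrogenase, by -0.37. Among the other mitochondrial genes none of 6 was called. The mitochondrial glycerol-3-phosphate dehydrogenase GUT2 had the largest difference of these, 1.54 (adjusted p = 0.0652), and passed when glucose replicate 2 was left out, at 1.89 (0.00510).

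**Figure D3:**
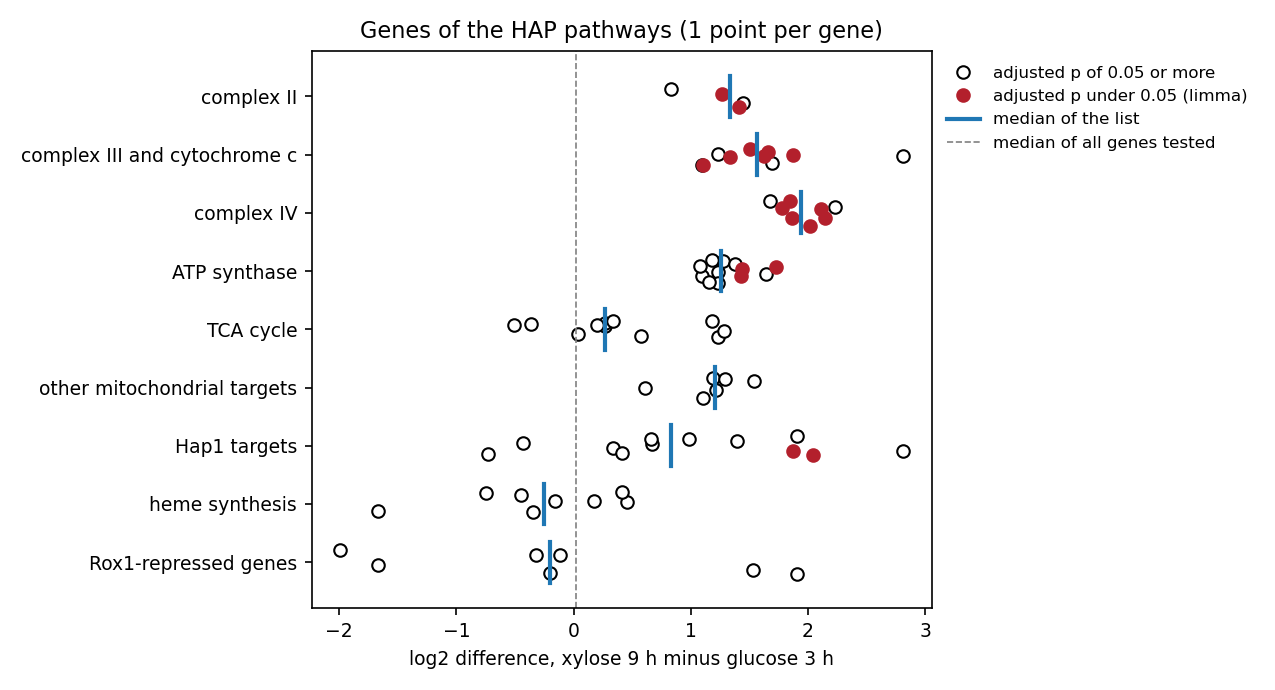
Log2 difference of xylose at 9 h minus glucose at 3 h for each gene of the lists, 1 point per gene, filled red where the limma adjusted p is under 0.05, with the median of each list as a blue bar and that of all genes as a dashed line. The listed genes of complexes II, III and IV and the ATP synthase lie wholly to the right of the median of all genes. TCA cycle, heme synthesis and Rox1-repressed genes, COX5B among the last, lie on either side of it. CYC1 and CYT1 appear under complex III and again under Hap1 targets, and CYC7 and HEM13 also appear in 2 lists.

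HAP4 and its list were also set side by side within each sugar. Each gene's level was set against its own mean over the 6 arrays. HAP4 then stood at -0.14, -2.04 and -0.52 in glucose replicates 1 to 3, and the median of the 51 genes stood at -0.58, -0.71 and -0.61. Both were lowest in glucose replicate 2, where HAP4 lay far below its other glucose values and the list only slightly. Complex IV was lowest in glucose replicate 3, at -1.42, and stood at -0.81 and -0.77 in replicates 1 and 2. Lowest in glucose replicate 3 as well was complex III with cytochrome c, at -1.08 against -0.55 in glucose replicate 2. Complex II and the other mitochondrial genes were lowest in glucose replicate 1, at -0.71 and -0.76. ATP synthase (-1.01) and TCA cycle genes (-0.56) were lowest in glucose replicate 2, where HAP4 was lowest. In xylose the median of the 51 genes was 0.62, 0.66 and 0.66 and HAP4 stood at 1.15, 1.13 and 0.42. These are descriptions of 6 arrays, and no relation across them was tested, since they fall into groups.

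The Hap1 targets gave a mixed picture. Of 12 listed genes 2 rose and none fell, against 2.52% of all genes called, and the median was 0.83. The calls were CTT1, the cytosolic catalase, at 2.04 ± 0.30 (limma adjusted p = 0.0221), and CYT1, the cytochrome c1 gene that is also a target of the Hap2/3/4/5 complex, at 1.87 ± 0.26 (0.0188). Leaving out glucose replicate 2 gave 6 rises, where 5.89% of all genes rose, and a median of 1.35. Dropping any 1 xylose array or glucose replicate 3 left 0, and dropping glucose replicate 1 left 1. It was 5 with the slide as a block. The lactate dehydrogenase CYB2 differed by 1.39 (adjusted p = 0.0815). YHB1, the flavohemoglobin that detoxifies nitric oxide, differed by 0.99 (0.577) with overlapping groups, and by 1.83 (0.0622) with glucose replicate 2 left out. NCP1, the cytochrome P450 reductase that serves sterol synthesis, differed by -0.73 (0.313), with every xylose array below every glucose array.

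CYC1, iso-1-cytochrome c and the textbook target of both Hap1 and the Hap2/3/4/5 complex, had the largest difference in either list and the widest spread in glucose. Its level was 0.80, 0.47 and 1.14 in xylose replicates 1 to 3 and -3.26, 0.08 and -2.85 in glucose replicates 1 to 3. Glucose replicate 2 lay near the xylose arrays and the other glucose arrays more than 3 log2 units below them. With all arrays the difference was 2.81 ± 0.83 (limma adjusted p = 0.145), and 3.86 (0.00339) once glucose replicate 2 was dropped. The array with the lowest HAP4 was thus the glucose array with the highest CYC1.

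ROX1, the Hap1 target that represses hypoxic genes, was likewise highest in replicate 2 among the glucose arrays. It stood at -0.43, -0.41 and -0.38 in xylose and at -1.71, -0.12 and -1.36 in glucose replicates 1 to 3, and glucose replicate 2 lay above all xylose arrays, unlike for CYC1. The difference was 0.66 (limma adjusted p = 0.499) with all arrays and 1.13 (0.0241) without glucose replicate 2. Among the genes that Rox1 represses the values went both ways. ANB1, the hypoxic isoform of the translation factor eIF5A, stood at 0.58, 0.39 and 0.66 in xylose and at 3.00, -3.82 and 2.79 in glucose replicates 1 to 3. Its sign therefore depended on the arrays, at -0.11 for all. It was -2.35 when glucose replicate 2 was dropped (adjusted p = 0.00448), 1.06 when glucose replicate 1 was and 0.95 when glucose replicate 3 was. AAC3, a hypoxic ADP/ATP carrier, stood at -4.13, -4.17 and -3.64 in xylose and at -1.18, -4.07 and -0.71 in glucose. OLE1, the fatty acid desaturase, was higher in xylose on every array, by 1.53 (adjusted p = 0.326), and by 0.67 with glucose replicate 2 left out. CYC7, the hypoxic isoform of cytochrome c, was also higher, by 1.91 (0.124) and 2.26 (0.0541).

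Of the 7 Rox1-repressed genes listed, limma called none with all arrays, where 1.1% of all genes were called lower. With glucose replicate 2 left out it called 4 lower, ANB1, AAC3, COX5B and HEM13, where 5.65% of all genes were lower. With the replicate number as a block and with the slide as a block 1 was called. It was CYC7 in both fits, higher in xylose (limma adjusted p = 0.0344 and 0.0109). HXT1, a transporter that high glucose induces, was highest in glucose replicate 2, at 3.46 against -1.55 and -0.73 in glucose replicates 1 and 3 and -2.39 to -1.51 in xylose. Glucose replicate 2 thus combined the lowest HAP4 and highest HXT1 with the lowest ANB1 and HEM13 of the 6 arrays. What sets this array apart was not tested.

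**Figure D4:**
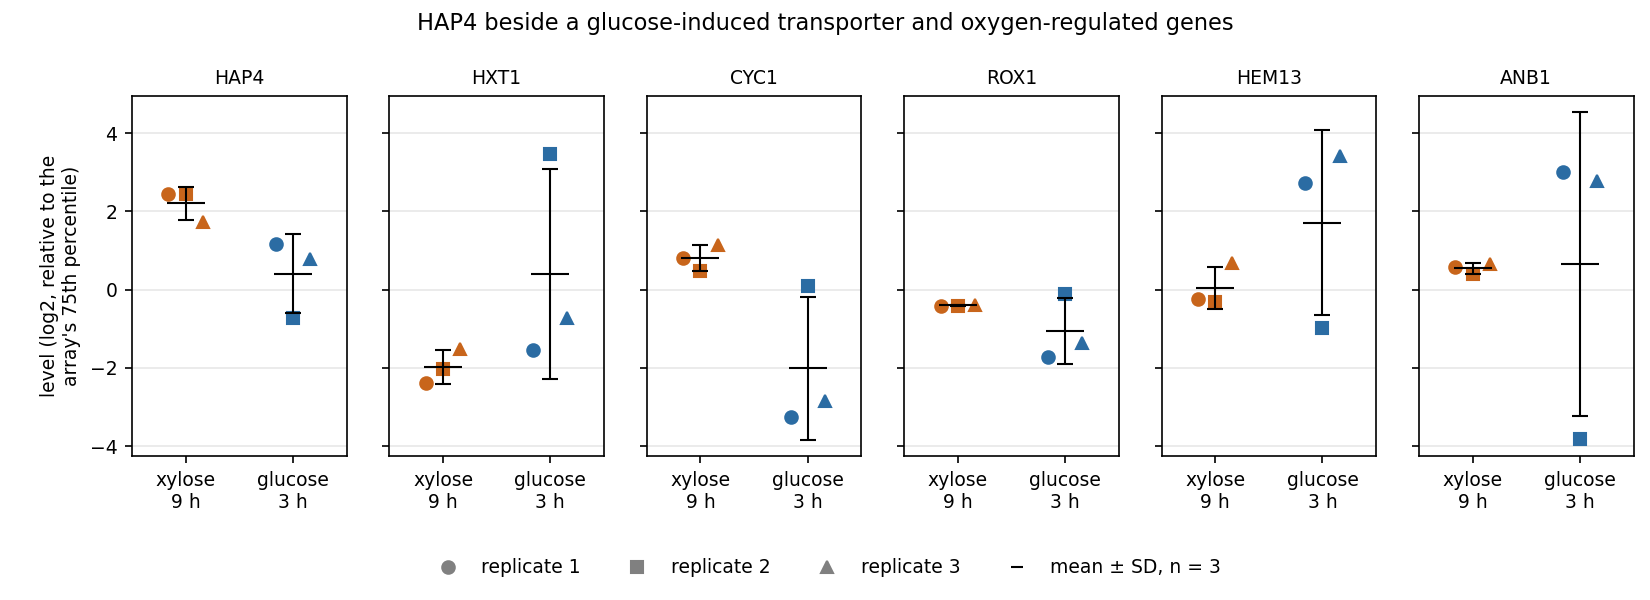
Level of HAP4 beside those of HXT1, CYC1, ROX1, HEM13 and ANB1 on each array (log2 relative to the array's 75th percentile), with mean and SD of 3 arrays. Each panel is a different probe, so heights are to be compared within a panel. Glucose replicate 2, the blue square, is lowest for HAP4, HEM13 and ANB1 and highest for HXT1, and lies near the xylose arrays for CYC1 and ROX1.

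Heme is the ligand of Hap1, and its synthesis was followed through 8 genes. None passed limma's test with all arrays, and the median difference was -0.25, or -0.52 with glucose replicate 2 left out. HEM13, the coproporphyrinogen oxidase that uses oxygen and is repressed by Rox1, stood at -0.23, -0.32 and 0.67 in xylose and at 2.73, -0.99 and 3.41 in glucose replicates 1 to 3. The difference was -1.67 (adjusted p = 0.504) over the 6 arrays, and -3.02 (0.0129) with glucose replicate 2 dropped. HEM14, the next enzyme of the pathway, then passed as lower as well, narrowly, at -0.92 (0.0498), making 2 of 8 where 5.65% of all genes were lower. HEM12, lower in xylose by 0.75 (0.157), had groups that did not overlap, 1 gene of 8 where 10.9% of all genes lay wholly higher in glucose. HEM1, which encodes the enzyme of the first step and is a target of the Hap2/3/4/5 complex, differed by 0.46 and HEM2 by 0.41, neither called. Both turn negative with spike-in centring.

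Several proteins exist as an aerobic and a hypoxic isoform. The hypoxic isoforms below are among the listed Rox1-repressed genes, and CYC7 is also a listed Hap1 target, as CYC1 is. The aerobic COX5A rose by 2.11 ± 0.40 (limma adjusted p = 0.0465), and its hypoxic partner COX5B differed by -0.32 (0.774). Without glucose replicate 2 the values were 2.55 (0.00499) and -0.80 (0.0430). For cytochrome c, CYC7 differed by 1.91 ± 0.52 (0.124) and CYC1 by 2.81 (0.145). In glucose CYC7 stood at 0.98, 1.35 and -0.38, without the wide gap of CYC1 between replicate 2 and the others. With the replicate number as a block CYC7 passed (0.0344) and COX5A did not (0.0534). HYP2, the aerobic partner of ANB1, gave 0.77 (0.474) over the 6 arrays, and 1.32 (0.0128) with glucose replicate 2 dropped. HYP2 and ANB1 are close in sequence, so their probes may share signal.

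The genes whose level followed each HAP gene most closely were sought among all genes tested by Pearson correlation over the 6 arrays. With 6 points and this many candidates high coefficients are bound to occur, and the arrays share groups and slides. For HAP4 they were GAC1 (r = 0.997), a regulatory subunit of the Glc7 phosphatase that acts on glycogen synthesis, PAI3 (0.996), an inhibitor of vacuolar proteinase A, and FMP45 (0.995), a membrane protein of the Sur7 family. They differed by 1.98, 1.71 and 1.37 between the sugars, and none of these was called. For HAP2 they were HFD1, a fatty aldehyde dehydrogenase, at 0.999, RAP1, the regulator of ribosomal protein genes and telomeres, at 0.995, and PFU1 at 0.995. For HAP1 they were POC4, a proteasome assembly chaperone, YPR071W and NUD1, a spindle pole body component, at 0.998 to 0.997. HAP5 was followed by FMP41, RAD57 and ERG8 at 0.991 to 0.990. HAP3 was followed by the copper-sensing regulator MAC1, RSM24 and EMC4 at 0.988 to 0.982, on a range of 0.10 in its own level.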

How the data were processed

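Total RNA of 6 samples was labelled with Cy3 and hybridised to one-colour Agilent arrays. Per the file headers, the authors' scanner software was Agilent Feature Extraction 10.1.1.1, which gives an intensity for each spot. The deposited log2 table equalled the log2 processed signal less a constant per array within 0.001 for 100% of values. That constant was close to the array's 75th percentile, so the table's scale and direction are known and no gene was centred. Its column medians were -1.25, -1.23 and -1.38 for xylose and -1.26, -1.26 and -1.42 for glucose.

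Here spots marked outlying or non-uniform were dropped, 727 to 1722 of 43792 per array. The log2 processed signal less the array's 75th percentile was averaged over the spots of each probe. Probes with more than 0.5 of their spots well above background on at least 3 arrays entered a limma fit (version 3.58.1, under R 4.3.3) with sugar as the only term. Its two-sided p-values from eBayes were adjusted by Benjamini-Hochberg over the 5907 genes. The fit was tested on simulated data. Symbols came from RefSeq's R64 table by locus tag. No coordinates or sequences are printed, since no build is named and none were used here. The HAP genes and the gene lists were chosen with earlier results of these data known. Named genes are the HAP genes, called list members and the 5 uncalled members of each list with the largest difference, the isoform pairs and the 3 genes most like each HAP gene. LSC1, MDH1, CIT1, IDH2, ACO1, KGD2, GUT2 and ROX1 are list members outside this rule. They and the array checks LEU2, MET17, URA3, HIS3, ASP3-1 and HXT1 were chosen after their values were seen.

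Same-numbered replicates of the sugars deviated together across genes (correlations of 0.399, 0.219 and 0.707 for numbers 1 to 3), and the number was used as a block in an alternative fit. Unlike numbers on slide 1 also correlated, at 0.410 for xylose 2 with glucose 1 and 0.246 for xylose 1 with glucose 2, and pairs across slides were negative. Number 3 and slide 2 coincide and cannot be told apart. Within slide 1, like numbers correlated no more closely than unlike ones. Xylose replicates 1 and 2 were kept as separate samples as labelled, with their average as an alternative.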

Additional observations from a re-analysis of the deposited data

How the results depend on the processing

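The differences of HAP2 and HAP4 kept their sign in all 18 alternatives and HAP4 was called in none; HAP2 passed with the slide block (0.73, adjusted p = 0.0495). HAP1 ran from -0.60 to 0.067 with single arrays left out. HAP3 turned to -0.013 with quantile normalization, to -0.0051 with median centring and to -0.66 with spike-in centring, which also turned HAP5 (-0.54), HEM1 (-0.23) and HEM2 (-0.28). ANB1 turned to 0.13 with quantile normalization and 0.89 within slide 1, and leaving out single arrays moved it from -2.35 to 1.06. HAP4 minus the mean of the core subunits kept its sign in all 18. Its exact permutation p cannot go below 0.1, and with quantile normalization of all 6 arrays it was 0.2. The count over all genes, 149, became 53 with normexp, 310 once replicate number was a block, 690 once slide was, 0 within slide 1 (987 at an unadjusted p under 0.05) and 12 with xylose replicates 1 and 2 averaged; single arrays left out gave 12 to 682. For the Hap2/3/4/5 list, 17, the same settings gave 7, 28, 35, 0 and 0, spike-in centring 0, and single arrays left out 0 to 29. For Hap1 targets, 2, the count was 0 with spike-in centring, within slide 1 and with the average, 5 with the slide block, and 0 to 6 with single arrays left out. Heme synthesis, 0, gave 1 with spike-in centring and with the slide block, and 0 to 2 with single arrays left out. Rox1-repressed genes, 0, gave 2 with spike-in centring, 1 with either block (CYC7, higher in xylose), and 0 to 4 with single arrays left out. The replicate block changed no call of a HAP gene. Calls split into 84 higher and 65 lower as reported, 23 and 108 with spike-in centring and 37 and 16 with normexp. Normexp was run on the median spot signal, a choice made after seeing the files, in place of the mean signal planned. Where a call was lost or gained, the cause was not tested. Precision is limited by having 3 arrays per sugar.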
